A study of Caenorhabditis elegans with 2 samples.

Results

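The nuclear genes for the proteins of the mitochondrial ribosome were examined for binding of REF-2, a Zic-family protein with zinc fingers that binds DNA, in *Caenorhabditis elegans*. The members were the protein-coding genes of the WBcel235 annotation whose names begin with mrpl- or mrps-. There were 70 such genes among 19973 protein-coding genes (chromosomes I to V and X), 41 for proteins of the large subunit (mrpl) and 29 for proteins of the small subunit (mrps). They were chosen by name, and no binding value entered the rule, though members and rule were chosen with earlier results of these data known. DAP-3, also a protein of the small subunit, is outside this naming rule, and its gene had no promoter summit in the pooled list.

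Binding was measured by ChIP-seq, the sequencing of chromatin fragments recovered with a protein, in whole hermaphrodites at the late embryonic stage, 3 h after eggs had been synchronized by bleaching. The strain, OP520, carried the unc-119(tm4063) III mutation and the transgene wgIs520, from which REF-2 was made with a GFP and FLAG tag at its C-terminus. The precipitation was directed at GFP, and the labels do not name the promoter that drives the transgene. All samples formed 1 group of 2 biological replicates of this strain, with no second condition, and the labels do not say whether the replicates were separate cultures. A control experiment is named as possible in the labels and was not analysed here. In whole animals, strong binding in few cells and weak binding in many cells cannot be told apart.

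Mitochondrial ribosomes translate the few messenger RNAs of the mitochondrial genome, which encode core subunits of the respiratory chain and the ATP synthase. Their RNAs come from the mitochondrial genome, while their proteins are encoded in the nucleus, made on cytosolic ribosomes and imported. The large subunit holds the peptidyl transferase centre and the small subunit decodes the messenger RNA. In *C. elegans*, lowered activity of these genes, such as mrps-5, is known to extend lifespan and to induce the mitochondrial unfolded protein response. Many worm genes lie in operons, in which genes in a row on 1 strand are transcribed together from the promoter of the first gene. REF-2 itself is known to act in the epidermis and in the choice of neuronal fates.

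A gene was called bound where the summit of a peak lay in its promoter window, between 1000 bp upstream and 200 bp downstream of its 5' end. Peaks came from the authors' optimal list, which is described as thresholded on reproducibility between replicates and held 2129 peaks on the ce11 build. They also came from 3 relaxed lists of 30000 peaks each, 1 for the pooled replicates and 1 for each replicate, which mix peaks with background. Signal is the peak caller's value per peak, as the authors deposited it, and ranks count from the strongest peak of a list. No optimal peak had a signal under 105.5, and none of the pooled peaks above that value was outside the optimal list. The intervals given with shares are exact 95% intervals by Clopper and Pearson for counting error alone, and all comparisons are descriptions with no test.

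Of the 70 genes, 5 had an optimal promoter summit, a share of 7.14% (interval 2.36 to 15.9), against 6.29% of all protein-coding genes. The share was thus close to that of genes at large. The 5 genes were mrpl-15, mrps-35, mrpl-18, mrpl-55 and mrpl-12. Of the 41 large subunit genes 4 were bound, or 9.76% (2.72 to 23.1), and of the 29 small subunit genes 1 was bound, or 3.45% (0.0873 to 17.8), so that the intervals overlapped. The median pooled signal at the 5 genes was 230.9, against 162.2 over all genes with an optimal promoter summit.

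The sequence around 3 of the bound summits is shown here, since these are the intervals on which the calls rest. Each covers 100 bp to either side of the summit, 5' to 3' on the strand of the gene, from the RefSeq sequence of WBcel235 (ce11). The mrpl-18 interval is chrIII:8144675-8144875, the mrpl-55 interval chrIV:443746-443946 and the mrpl-12 interval chrIII:10707109-10707309, all on the plus strand. Capitals mark the letters CTCCTCTC or their reverse complement GAGAGGAG, which are described with the other motifs further on. The mrpl-12 interval holds none of the motifs searched.
mrpl-18: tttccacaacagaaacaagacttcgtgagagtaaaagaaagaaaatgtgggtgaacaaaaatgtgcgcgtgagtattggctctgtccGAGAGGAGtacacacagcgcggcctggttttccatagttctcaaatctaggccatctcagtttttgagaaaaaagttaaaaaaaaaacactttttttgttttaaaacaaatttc
mrpl-55: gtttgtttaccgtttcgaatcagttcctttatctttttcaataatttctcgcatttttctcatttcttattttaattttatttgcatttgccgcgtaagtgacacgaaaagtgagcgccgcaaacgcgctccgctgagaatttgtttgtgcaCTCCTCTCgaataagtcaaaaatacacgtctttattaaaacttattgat
mrpl-12: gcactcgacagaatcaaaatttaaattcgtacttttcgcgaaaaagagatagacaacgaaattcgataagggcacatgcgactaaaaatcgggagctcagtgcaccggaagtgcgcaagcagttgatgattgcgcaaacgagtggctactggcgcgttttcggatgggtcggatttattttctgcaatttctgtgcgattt

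The strongest member was mrpl-15, which encodes a protein of the large subunit related to bacterial ribosomal protein L15. Its summit had a pooled signal of 311.2 (rank 146), with 152.1 in replicate 2 (rank 194) and 160.9 in replicate 1 (rank 117). It lay in intergenic sequence 653 bp upstream of the gene, which occupies positions 1436279 to 1441334 of chromosome I on the plus strand, and no other promoter window held it. mrps-35, for a small subunit protein, followed with a pooled signal of 293.5 (rank 171), 152.2 in replicate 2 (rank 193) and 147.3 in replicate 1 (rank 158). The replicates differed little in signal at both genes.

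The mrps-35 summit lay at -137 bp, where negative distances are upstream of the 5' end. The gene occupies positions 18981306 to 18985865 of chromosome V on the plus strand. The summit fell inside the annotated 5' UTR of sws-1, a gene for a homologous recombination factor that is transcribed from the opposite strand and overlaps the mrps-35 promoter window.

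mrpl-18, for a large subunit protein related to bacterial L18, had a pooled signal of 230.9 (rank 365), with 106.6 in replicate 2 (rank 529) and 121.1 in replicate 1 (rank 291). Its summit lay at -240 bp between mrpl-18 (chromosome III, 8145015 to 8145974, plus strand) and the divergently transcribed C14B9.8, and counted for both genes. These 3 genes were the members that stood among the 2129 strongest peaks of each replicate. That share was 4.29% (0.893 to 12), against 4.86% of all genes.

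The remaining 2 bound genes were weaker. All 5 bound genes ranked lower in replicate 2 than in replicate 1, and these 2 were outside the 2129 strongest peaks of replicate 2. mrpl-55, for a large subunit protein with no bacterial counterpart, had a pooled signal of 125.1 (rank 1466), with 52.57 in replicate 2 (rank 3037) and 69.00 in replicate 1 (rank 1099). Its summit lay at -139 bp in intergenic sequence of chromosome IV, upstream of a gene at 443985 to 444786 on the plus strand. mrpl-12 encodes the protein of the flexible stalk of the large subunit, whose human counterpart also binds the mitochondrial RNA polymerase. Its pooled signal was 115.9 (rank 1724), with 42.68 in replicate 2 (rank 5798) and 67.77 in replicate 1 (rank 1139). The summit lay at -552 bp from mrpl-12 (chromosome III, 10707761 to 10708521, plus strand) and was shared with the divergent genes Y39A1A.21 and Y39A1A.22. The deposited −log10 q was 2.87 at the 3 stronger genes, 1.57 at mrpl-55 and 1.29 at mrpl-12.

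**Figure D1:**
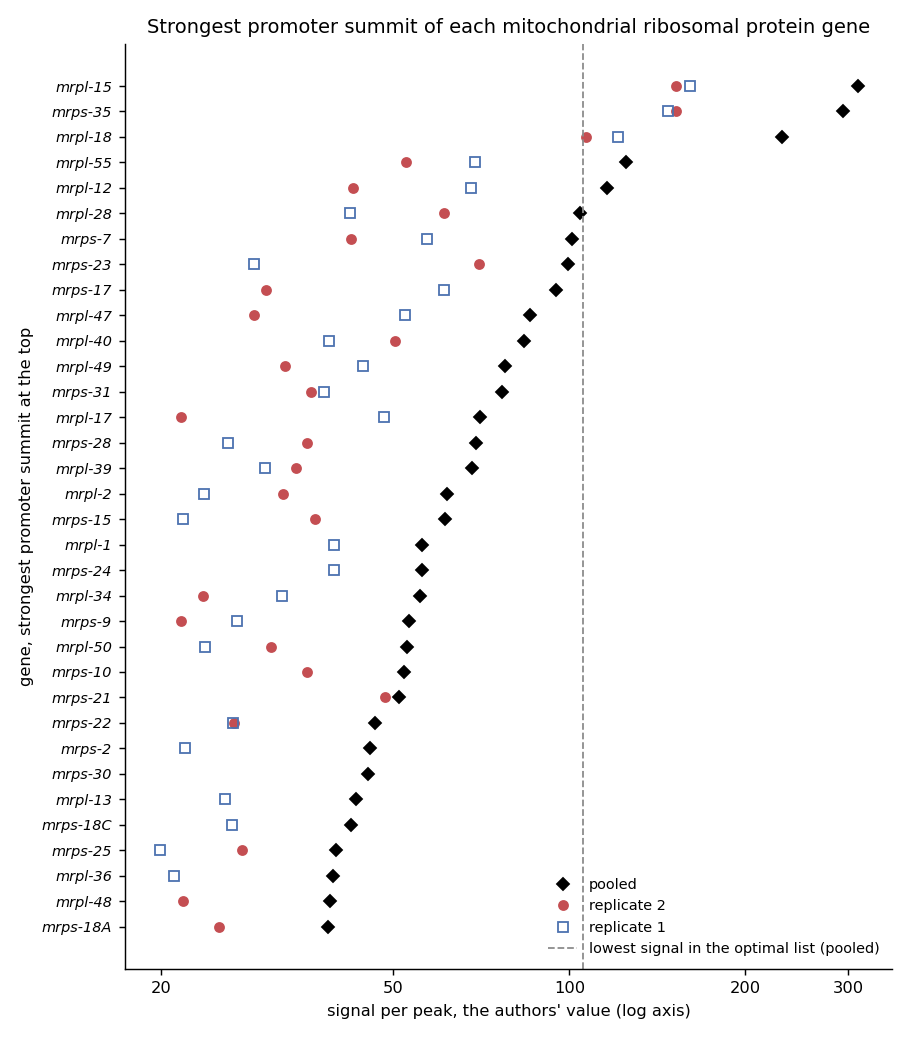
Signal per peak (the authors' value, log axis) at the strongest promoter summit of the 34 mitochondrial ribosomal protein genes with a summit in the pooled relaxed list, with black diamonds for the pooled list, red circles for replicate 2 and open blue squares for replicate 1; a missing mark means no peak of that replicate within 200 bp. The pooled signal runs between 38.71 and 311.2, and 5 genes lie right of the dashed line at 105.5, the lowest signal in the optimal list.

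A further 6 genes had a summit among the 4000 strongest pooled peaks, just outside the optimal list. With the 5 above they made 11 genes, or 15.7%, against 9.61% of all genes. mrpl-28, for a large subunit protein, came closest with a pooled signal of 104.3 (rank 2187), 61.09 in replicate 2 (rank 2025) and 42.21 in replicate 1 (rank 3633). mrps-7, whose bacterial counterpart organizes the head of the small subunit, had a pooled signal of 101.0 (rank 2397), 42.35 in replicate 2 (rank 5948) and 57.12 in replicate 1 (rank 1673). The pooled signals just inside and just outside the threshold were thus 115.9 at mrpl-12 and 104.3 at mrpl-28.

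The sequences at these 2 summits are given for comparison with those of the bound genes, over the same distances and on the strand of the gene. The mrpl-28 interval is chrII:156049-156249 and the mrps-7 interval chrIV:14767822-14768022, both on the minus strand. Capitals mark TTTCGCGC at mrpl-28 and GACGCAGA, the reverse complement of TCTGCGTC, at mrps-7.
mrpl-28: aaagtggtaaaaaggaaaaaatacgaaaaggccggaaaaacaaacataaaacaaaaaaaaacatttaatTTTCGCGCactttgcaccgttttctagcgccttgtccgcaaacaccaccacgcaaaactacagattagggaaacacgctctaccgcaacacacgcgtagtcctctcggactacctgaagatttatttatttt
mrps-7: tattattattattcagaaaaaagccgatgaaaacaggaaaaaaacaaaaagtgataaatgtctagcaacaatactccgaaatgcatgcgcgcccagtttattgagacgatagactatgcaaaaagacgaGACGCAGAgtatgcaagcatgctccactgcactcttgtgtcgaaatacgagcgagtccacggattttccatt

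The other genes just below the threshold differed between replicates, in both directions. mrps-23, for a small subunit protein, had a pooled signal of 99.34, with 69.99 in replicate 2 (rank 1444) and 28.92 in replicate 1 (rank 11263). mrps-17, for a small subunit protein related to bacterial S17, went the other way, with a pooled signal of 94.83, 30.25 in replicate 2 (rank 15169) and 60.94 in replicate 1 (rank 1453). mrpl-47 had a pooled signal of 85.56, with 28.91 in replicate 2 (rank 16885) and 52.30 in replicate 1 (rank 2075). mrpl-40 had a pooled signal of 83.69, with 50.27 in replicate 2 (rank 3469) and 38.75 in replicate 1 (rank 4715). Each of mrps-23, mrps-17 and mrpl-47 was thus among the strongest peaks of 1 replicate and deep in the list of the other.

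The next 3 by signal were mrpl-49, mrps-31 and mrpl-17. mrpl-49 had a pooled signal of 77.71, with 32.65 in replicate 2 and 44.38 in replicate 1, at a summit shared with the divergent gene rpl-28, which encodes a protein of the cytosolic ribosome. mrps-31 had a pooled signal of 76.77, with 36.09 in replicate 2 and 38.12 in replicate 1. mrpl-17 had a pooled signal of 70.36, with 21.64 in replicate 2 (rank 29337) and 48.10 in replicate 1 (rank 2584), at a summit in its own coding exon 93 bp downstream of the 5' end. The mrpl-17 window also held a stronger replicate 2 peak (signal 42.04, rank 6081) at -200 bp, too far from the pooled summit to be matched.

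The replicates named partly different members. Among the 2129 strongest peaks of replicate 2 were promoter summits of 5 members (7.14%, against 5.98% of all genes), namely mrpl-15, mrpl-18, mrpl-28, mrps-23 and mrps-35. Among those of replicate 1 were summits of 8 members (11.4%, 5.07 to 21.3, against 6.51% of all genes), namely mrpl-12, mrpl-15, mrpl-18, mrpl-47, mrpl-55, mrps-7, mrps-17 and mrps-35. Replicate 2 thus held 3 of the 5 optimal members and replicate 1 held all 5.

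The strongest summits of the members could be matched within 200 bp in both replicates at 23 of the 33 distinct places. The log2 ratio of replicate 2 to replicate 1 had a median of -0.08 at these 23, with values between -1.15 at mrpl-17 and 1.27 at mrps-23 and an SD of 0.593. Over the strongest promoter summits of all genes, 3813 were matched, with a median of 0.18 and an SD of 0.468. Replicate 2 had the higher signal at 11 of the 23 places (47.8%), against 65.2% of the places of all genes. Counted from the median over matched optimal peaks (0.18), 4 members, mrps-23, mrps-17, mrpl-47 and mrpl-17, differed by more than 2-fold, or 17.4%, against 3.59% of the places of all genes. At mrpl-17 the ratio rests on the weak replicate 2 peak near the pooled summit, and not on the stronger one at -200 bp. How signal was normalized between lists is not given in the sources used here, and a ratio of 1 between the replicates does not mark equal binding.

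**Figure D2:**
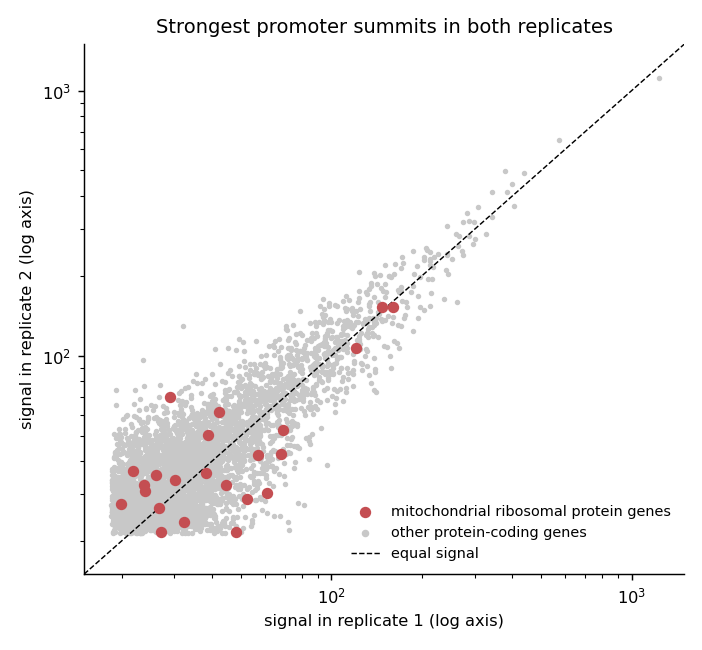
Signal in replicate 2 (vertical, log axis) against replicate 1 (horizontal, log axis) at strongest promoter summits matched in both replicates, with red points for the 23 places of mitochondrial ribosomal protein genes, grey points for other genes and a dashed line at equal signal. The 3 strongest members lie near the line, and of the weaker ones 4 lie more than 2-fold from the median ratio of optimal peaks.

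In the relaxed lists the members were more often found. In the pooled relaxed list 34 of the 70 genes had a promoter summit (48.6%, 36.4 to 60.8), against 35.0% of all genes. The replicates gave 36 genes in replicate 2 (51.4%, 39.2 to 63.6), against 34.3% of all genes, and 35 genes in replicate 1 (50%, 37.8 to 62.2), against 35.4% of all genes. In all 3 lists the interval for the members lay above the share of all genes, narrowly so in the pooled list. The lists are not independent, since the pooled one comes from both replicates. Nor are the genes, since the 34 members rest on 33 distinct summits, and the intervals are no test. The strength of these summits was ordinary, with a median pooled signal of 61.61 at the members and 60.17 over all genes with a relaxed summit. By subunit, 17 small subunit genes (58.6%) and 17 large subunit genes (41.5%) had a pooled relaxed summit.

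The shares were also followed down the pooled list. Among the 500 strongest pooled peaks, 3 members (4.29%) and 1.97% of all genes had a promoter summit. Among the 1000 strongest the shares were 4.29% and 3.57%. Among the 10000 strongest the shares were 24.3% and 16.9%, and among the 20000 strongest 37.1% and 26.7%. The genes for proteins of the cytosolic ribosome, the nearest counterpart of these genes in function, lay far above both, at 30.8% among the 1000 strongest and 75.6% among the 10000 strongest.

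**Figure D3:**
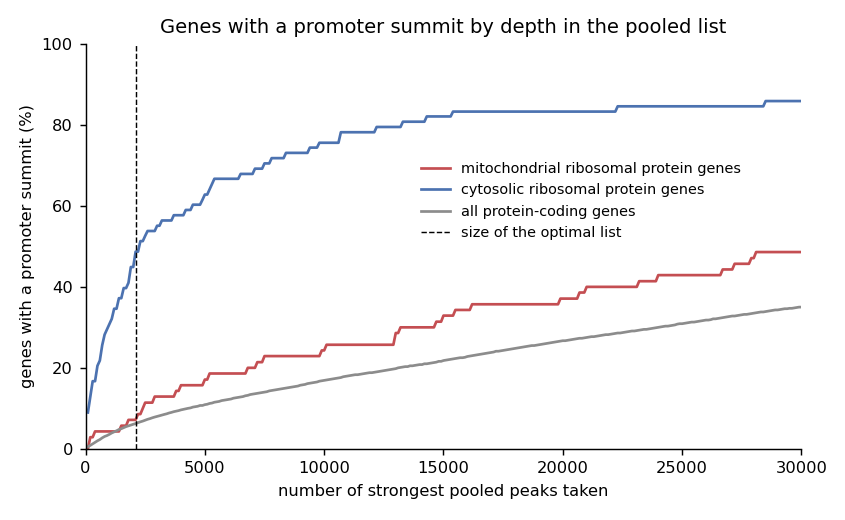
Percent of genes with a promoter summit (vertical) as more of the pooled peaks are taken, strongest first (horizontal), for mitochondrial ribosomal protein genes in red, cytosolic ribosomal protein genes in blue and all protein-coding genes in grey. At the size of the optimal list (dashed) the red and grey curves stand at 7.14% and 6.29%, and at the full list they stand at 48.6% and 35.0%.

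At the other end, 25 of the 70 genes (35.7%) had no promoter summit in any relaxed list, against 54.2% of all genes. The large subunit genes among them were mrpl-4, mrpl-10, mrpl-11, mrpl-16, mrpl-21, mrpl-22, mrpl-23, mrpl-24, mrpl-30, mrpl-32, mrpl-35, mrpl-37, mrpl-38, mrpl-42, mrpl-45, mrpl-46, mrpl-51 and mrpl-54, 18 in all. The 7 small subunit genes were mrps-5, mrps-6, mrps-11, mrps-14, mrps-18B, mrps-26 and mrps-33. mrps-5, the member best known from lifespan studies, was thus among those with no summit. A further 11 genes had a summit in the list of 1 replicate and none in the pooled list, 7 of them in replicate 2 and 4 in replicate 1. The share of all genes by that call is not given here. The ref-2 gene itself had no pooled promoter summit, with 1 in replicate 2 (signal 62.03, rank 1961) and 1 in replicate 1 (signal 80.56, rank 779).

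The relaxed summits of the members lay close to the genes. The median position of the strongest pooled relaxed summit was -148 bp for the 34 members, against -285 bp for all genes with such a summit. Within 350 bp upstream of the 5' end lay 20 of the 34 (58.8%), against 40.0% for all genes, while 9 lay farther upstream and 5 downstream. Of the 34, 21 were intergenic, 7 in a coding exon, 4 in an intron and 2 in a 5' UTR, of the member or of a neighbour. The windows of 14 members (41.2%) shared their summit with another gene, against 28.8% of all genes with a relaxed summit. mrpl-1 and mrps-24 are a divergent pair of 2 members with 1 summit between them, at a pooled signal of 55.90, with no match in replicate 2 and 39.63 in replicate 1. No noncoding gene lay within 200 bp of any of these 34 summits, the optimal ones included. Among all genes with an optimal promoter summit, 18.8% had such a neighbour. For all genes with a relaxed summit, that share and the shares by place (intergenic, exon, intron or UTR) are not given here.

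**Figure D4:**
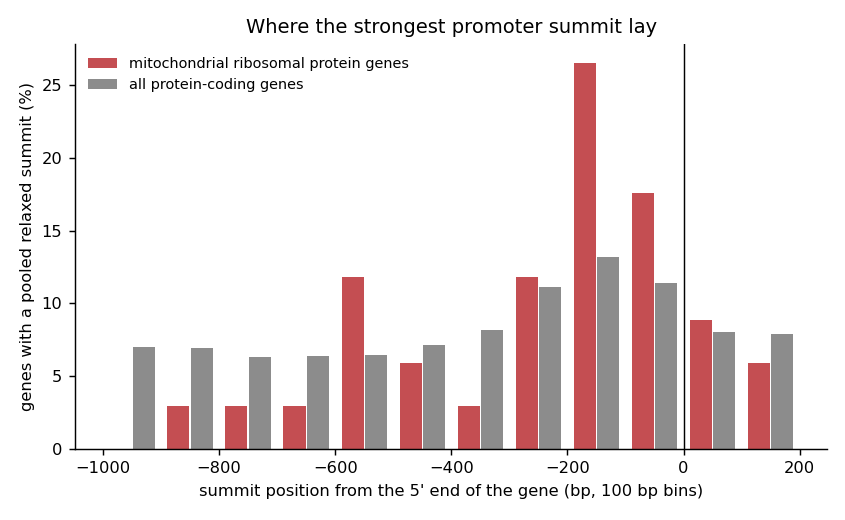
Percent of genes (vertical) by position of the strongest pooled relaxed promoter summit from the 5' end of the gene in bp (horizontal, 100 bp bins, negative upstream), for the 34 mitochondrial ribosomal protein genes in red and all genes with such a summit in grey. The red bars are highest between -200 and 0 bp, and 58.8% of the members lie within 350 bp upstream, against 40.0% of all genes.

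Placement of the genes along the chromosomes differed from that of other genes. On chromosome III lay 22 of the 70 (31.4%), against 13.2% of all genes, and on chromosome X none, against 13.7%. The numbers on chromosomes I, II, IV and V were 15, 12, 11 and 10. The 5 bound genes were spread over chromosomes I (1), III (2), IV (1) and V (1).

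Starts were sorted by their neighbours, since a gene inside an operon may lie away from the promoter that drives it. A tight run was a row of protein-coding genes on 1 strand with gaps of at most 500 bp, which stands in for operons, whose annotation was not used here. Of the 70 genes, 29 (41.4%) were internal to a tight run, against 20.1% of all genes, and 18 (25.7%) were the head of a run, against 14.3%. A further 12 (17.1%, against 12.9%) were in no run and had a divergent partner within 1000 bp. The last 11 (15.7%, against 52.7%) had none of these arrangements. A divergent partner was also present at 13 of the 18 heads, which count as heads only, and at the internal start mrpl-1. Heads and divergent pairs are thus not distinct arrangements, and the share of all heads with such a partner is not given here. The median gap upstream of the 29 internal members was 106 bp, against 152 bp for all internal starts.

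None of the 29 internal members had an optimal promoter summit (interval 0 to 11.9), against 3.56% of all internal starts. None of the 18 heads had one either (0 to 18.5), against 12.2% of all heads. Among the 2129 strongest peaks of replicate 1 alone 3 heads did, namely mrpl-47, mrps-7 and mrps-17. By that call 6.51% of all genes were bound, and the share of all heads is not given here. In the optimal list, 2 of the 12 in divergent pairs were bound (16.7%, 2.09 to 48.4), against 11.9% of all such genes, namely mrpl-18 and mrpl-12. Of the 11 other starts 3 were bound (27.3%, 6.02 to 61.0), against 4.36%, namely mrpl-15, mrps-35 and mrpl-55. In the pooled relaxed list the counts were 11 heads (61.1%, against 43.3%), 10 internal starts (34.5%, against 33.2%), 7 in divergent pairs (58.3%, against 46.0%) and 6 others (54.5%, against 30.8%). The share of internal members was thus close to that of all internal starts. Of the 25 members with no summit in any list, 13 were internal starts, where 41.4% of all 70 members are internal. The share of internal starts among all genes with no summit is not given here.

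**Figure D5:**
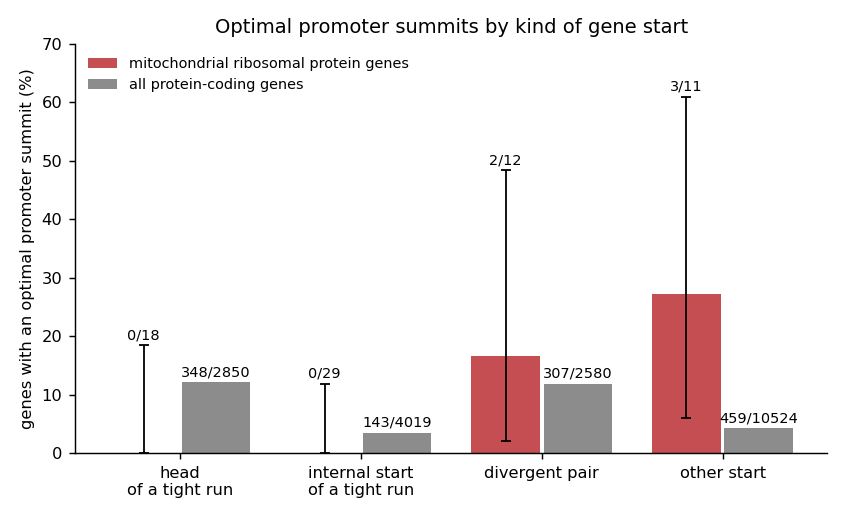
Percent of genes with an optimal promoter summit (vertical) by kind of gene start, for mitochondrial ribosomal protein genes in red with 95% Clopper-Pearson intervals and all protein-coding genes in grey, with counts over the bars. All 5 bound members have starts outside tight runs, with 2 of 12 in divergent pairs and 3 of 11 among other starts, and the intervals are wide. Heads with a divergent partner, 13 of the 18 member heads, count as heads only. With the 2129 strongest peaks of replicate 1 in place of the optimal list, 3 heads are bound, and the share of all heads by that call is not given here.

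Of the 29 internal members, 7 (24.1%, 10.3 to 43.5) belonged to a run whose head had an optimal promoter summit, against 13.0% of all internal starts. The strongest was F29B9.11, the head of the run that holds mrps-21, with a pooled signal of 511.9, 239.7 in replicate 2 and 274.2 in replicate 1, shared with the histone demethylase gene jmjd-1.2. nrde-2, a nuclear RNA interference gene at the head of the run of mrps-14, had a pooled signal of 449.5, with 210.4 in replicate 2 and 240.5 in replicate 1. Its summit was shared with atad-3, which encodes an ATPase of the mitochondrial inner membrane. eif-3.E, a translation initiation factor gene at the head of the run of mrps-30, had a pooled signal of 336.4, with 138.3 in replicate 2 and 194.2 in replicate 1. These 3 head summits were stronger than that of any member.

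The other 4 heads had pooled signals between 151.8 and 223.3. They were tag-124 before mrpl-53 (223.3, with 111.7 in replicate 2 and 108.6 in replicate 1) and T14B4.3 before mrps-18.C (203.5, with 98.84 in replicate 2 and 106.0 in replicate 1). clsp-1 before mrpl-54 had 194.3, with 125.6 in replicate 2 and 70.48 in replicate 1, at a summit shared with the translation elongation factor gene eef-2. rpn-3, a proteasome gene before mrpl-32, had 151.8, with 91.09 in replicate 2 and 59.47 in replicate 1, and a noncoding gene lay within 200 bp of its summit. Whether these runs are transcribed as operons was not tested, and 6 of the 7 summits, all but that of T14B4.3, also lay in the window of another gene.

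Strong peaks also lay just beyond some promoter windows. An optimal summit with a pooled signal of 442.5, 246.4 in replicate 2 and 198.4 in replicate 1 lay at -1002 bp from mrps-28, 2 bp outside the window, in an intron of Y43F8C.7. Another lay at -1027 bp from mrpl-23 in an intron of fars-1, a cytosolic phenylalanyl-tRNA synthetase gene, with a pooled signal of 172.0, 91.50 in replicate 2 and 85.84 in replicate 1. Neither summit was in any promoter window. Within 5000 bp of the 5' end, 22 members (31.4%) had an optimal summit, against 18.5% of all genes, and the median distance to the nearest one was 14390 bp for the members and 20344 bp for all genes.

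Motifs were searched on both strands within 100 bp of the summits. A match is a description of the letters and not a site. The Zic-type core, CAGCAGG or CAGCGGG, was at none of the 5 bound member summits, against 6.48% of the 972 optimal summits in promoter windows and 1.19% of windows of equal length (201 bp) directly upstream of all genes. CAGCTG was also at none of the 5, against 7.82% of the 972 and 3.44% of upstream windows. The same held for TCTGCGTC (10.6% and 2.29%), for CACGTG (3.81% and 4.23%), for GGGCGG (13.2% and 5.97%) and for TTTCGCGC (3.09% and 0.901%). GAGAGA was at mrpl-15 (37.4% of the 972 and 16.3% of upstream windows), and TTTTCAG was at mrps-35 (9.05% and 22.1%). Within 250 bp of the summits, the Zic-type core was at mrpl-55, against 9.05% of the 972 and 3.56% of upstream windows of that length.

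Just below the threshold, TCTGCGTC was found at mrps-7 and TTTCGCGC at mrpl-28, as capitals in the sequences above show. GAGAGA was at mrpl-40 and mrps-23, GGGCGG at mrpl-47 and mrps-23, and TTTTCAG at mrps-17 and mrps-23. The Zic-type core, CAGCTG and CACGTG were at none of these 6 summits. The letters CTCCTCTC were added after the member sequences had been read. They were present at 4 of the 5 bound summits (mrpl-15, mrpl-18, mrpl-55 and mrps-35), at 64 of the 972 (6.58%) and in 1.27% of upstream windows, and at none of the 6 summits just below the threshold. The letters overlap GAGAGA at mrpl-15. Since the motif was picked from these sequences, its count at the members supports nothing. It lay 63 to 56 bp upstream of the summit at mrpl-15 and 13 to 6 bp upstream at mrpl-18, but 52 to 59 bp downstream at mrpl-55 and 38 to 45 bp downstream at mrps-35.

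Over whole promoter windows of all 70 genes, bound or not, the Zic-type core occurred in 15 (21.4%), against 9.03% of the windows of all genes. TTTTCAG occurred in 61 (87.1%), against 73.8%, and CAGCTG in 19 (27.1%), against 20.9%. The shares for the remaining motifs of the list differed by less than 1 percentage point, for example 35 windows (50%) with GAGAGA, against 50.9%. CTCCTCTC, chosen from member sequences, occurred in 9 (12.9%), against 4.65%. The median GC content of the windows was 35.7% for the members and 35.0% for all genes. At the 5 bound summits the GC content within 100 bp was between 35.3% and 44.8%, in each case below the median of 45.8% over the 972 summits.

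Other genes of mitochondrial gene expression and the respiratory chain were set beside the members, in lists taken by name. The share with an optimal promoter summit was 48.7% (37.2 to 60.3) for the 78 cytosolic ribosomal protein genes, whose interval lies above that of the mitochondrial ones. Without peaks near noncoding genes the cytosolic count fell from 38 to 26, while that of the members stayed at 5. The share of all genes by that call was 5.12%. Where each summit counted for 1 gene only, the counts were 25 and 3. The highest of the cytosolic genes, rpl-3, had a pooled signal of 926.1, with 488.2 in replicate 2 and 437.6 in replicate 1. It was followed by rpl-35 (550.5), rpl-15 (523.5) and rpl-20 (489.3). The strongest mitochondrial ribosomal protein gene, at 311.2, lay below all 4.

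Of 5 mitochondrial translation factor genes 2 were bound (40.0%, 5.27 to 85.3), against 6.29% of all genes. They were gfm-1, for an elongation factor (pooled signal 223.4), and tufm-2, for an elongation factor Tu (140.6). Of 12 mitochondrial tRNA synthetase genes 3 were bound, namely ears-2 (575.5), aars-1 (136.9) and yars-2 (127.5). Of 15 cytochrome c oxidase genes 3 were bound, namely cox-5B (407.4), cox-5A (278.1) and cox-6A (201.2, beside an snRNA gene). Of 5 ATP synthase genes 2 were bound (40.0%, 5.27 to 85.3), atp-5 (210.9) and atp-1 (152.2). Of 5 mitochondrial chaperone and prohibitin genes 2 were bound (40.0%, 5.27 to 85.3), hsp-60 (389.1) and phb-2 (118.1). The summits of gfm-1, tufm-2, ears-2, aars-1, atp-5, atp-1 and hsp-60 were shared with a neighbouring gene. None of 6 complex I genes and none of 13 protein import genes was bound (intervals 0 to 45.9 and 0 to 24.7). Among the 2129 strongest peaks of replicate 2 alone there was 1 complex I gene and 1 import gene, by a call that took 5.98% of all genes. Among those of replicate 1 alone there were 2 import genes, by a call that took 6.51% of all genes. The interval of the mitochondrial ribosomal protein genes overlapped that of each of these 7 mitochondrial lists. With at most 15 genes per list these intervals are wide, so that the overlap does not show that the shares are alike.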

How the data were processed

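REF-2 ChIP-seq peaks were analysed from 1 group of 2 replicates. The signal per peak and the −log10 q per peak are values of the authors, in the narrowPeak columns per the deposited file descriptions. The optimal list is described as passing a reproducibility threshold (IDR) and equalled the top of the pooled list. The relaxed lists were called on pooled alignments and on those of each replicate, per the deposited descriptions. The caller, the aligner, the normalization of signal and the use of a control are not given in the sources used here. Only peak lists were used, so depth is unknown. The 4 lists on ce10 were not used, and 0 columns belonged to other samples.

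Gene models came from the WBcel235 annotation (Ensembl release 115), and coordinates are 1-based. A summit in several promoter windows counted for each gene, and the strongest summit stood for a gene. Replicate peaks were matched to the pooled summit within 200 bp. Starts were sorted in the order internal to a tight run, head, divergent pair, other. The shares of all genes include the members. Named were the members with an optimal summit, those among the 4000 strongest pooled peaks, the next 3, those with no summit in any list, up to 4 bound genes per related list, and ref-2; other names were chosen after values were seen. Members, lists and rules were chosen with earlier results of these data known. Related lists were taken by name, and 4 translation factor and 4 tRNA synthetase names were not found in the annotation. The assignment of summits to promoter windows was tested on simulated peaks, and the sorting of starts on a made-up set of genes. Python 3.11.15, numpy 2.4.6, scipy 1.17.1 and matplotlib 3.10.9 were used.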

Additional observations from a re-analysis of the deposited data

How the results depend on the processing

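The number of members with an optimal promoter summit (5) changed with most definitions, and the share of all genes changed with it. It was 3 in the stronger 50% of the optimal list (4.29%, against 3.80% of all genes), 3 with a 500 bp window (4.29%, against 4.86%) and 3 with 1 gene per summit (4.29%, against 4.71%), the nearest 5' end taking it, since mrpl-12 and mrpl-18 lost theirs to a divergent neighbour. It was 9 with a 2000 bp window (12.9%, against 8.61%) and 8 where any base of the peak counted (11.4%, against 6.98%), in each case with mrps-28, mrpl-23 and mrps-21 added. Leaving out a replicate gave between 5 and 8 members, 3 to 5 of the large subunit and 2 to 3 of the small. The large subunit count (4) was 2 in the stronger 50%, with the 500 bp window and with 1 gene per summit. The small subunit count (1) was 4 with the 2000 bp window and 3 with any base. The count of heads (0) was 1 with the 2000 bp window, with any base and with runs of gaps up to 1000 bp, and between 0 and 3 without a replicate, where mrpl-47, mrps-7 and mrps-17 entered from replicate 1. The count of internal starts (0) was 3 with the 2000 bp window, 2 with any base and 1 by the nearest 5' end within 5000 bp. The count of divergent pairs (2) was 1 in the stronger 50%, with the 500 bp window and by the nearest 5' end, 0 with 1 gene per summit, and between 1 and 2 without a replicate. The median signal (230.9) was 293.5 in the stronger 50% and with 1 gene per summit, and was not computed without a replicate, since the lists are not on 1 scale. The count in the pooled relaxed list (34) was 17 among the 10000 strongest peaks, and that in both replicates (3) was 6 among the 4000 strongest of each (8.57%, against 6.83% of all genes). The call in both replicates needs a summit of each in the window, not the same summit. At mrpl-40, 1 of the 6, the replicate 2 peak lay 44 bp downstream of the 5' end and the replicate 1 peak at -935 bp. Other transcript starts and leaving out peaks near noncoding genes kept the same 5 members. The count of bound cytosolic ribosomal protein genes (38) was between 25 and 39. The counts of bound ATP synthase (2) and chaperone (2) genes were each 1 with 1 gene per summit. Within 250 bp of the summits the Zic-type core (0) and CACGTG (0) were each at 1 bound member and TTTTCAG (1) at 3, and within 50 bp GAGAGA (1) and TTTTCAG were at 0. The CTCCTCTC count (4) was 2 within 50 bp. In all, 137 of 186 alternative values stayed within 1.5 times a count or within 1 SD of a ratio.

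No paired analysis was possible because there is 1 group of samples. With 2 replicates of unknown depth and 5 bound members, shares are imprecise, and the lack of a summit does not show the lack of binding.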
